A study of Mus musculus with 18 samples.

Results

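At 2 months of age, 5 hearts from mice without the taurine transporter Taut (Taut -/-), the product of Slc6a6, were set against 5 hearts of wild-type (Wt) mice. The comparison takes the 10 deposited columns that the labels name yWt and yTaut, out of 18 columns in the series. These are the 2 grids of 5 of the 9 spotted oligonucleotide arrays, and the other 4 arrays hold mice of 15 to 16 months. On each array, labelled cDNA from 1 wild-type heart and 1 knockout heart was hybridised together, so that 1 array is 1 pair of mice and the pair is the replicate (n = 5). The knockout heart carried Cy5 in pairs 1, 3 and 5 and Cy3 in pairs 2 and 4. The sources used here give no strain, sex, kind of knockout allele or sampled chamber, and the tissue is labelled as heart only.

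Taurine is an amino sulphonic acid that is not built into proteins and is among the most abundant free amino acids of heart muscle. Cardiomyocytes take it up against a steep gradient through the sodium- and chloride-dependent transporter Taut, and hold it as an organic osmolyte that helps to set cell volume. When heart muscle is stressed it is known to switch on a programme of fetal genes, among them the natriuretic peptide gene Nppa, the skeletal actin gene Acta1, the muscle ankyrin repeat gene Ankrd1 and the slow myosin gene Myh7.

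The deposited values are log2 ratios between the channels of an array, and the labels do not say which sample is the numerator. A sign below is therefore the sign as deposited, sizes are given as an N-fold difference between the genotypes, and no gene is called higher or lower in the knockout. The values were read as a ratio between the genotypes that runs the same way on all 5 arrays, and the part that follows the dye was fitted as a separate coefficient. If the deposited values are instead Cy5 to Cy3, that dye coefficient holds the genotype difference and the fitted mean holds the dye effect. Over 218 genes, which are not independent replicates, pairs of the same dye orientation correlated with r between 0.41 and 0.77 and pairs of opposite orientation with r between 0.079 and 0.36, so that the arrays of both orientations did not run against each other. The labels do not settle the reading. Array medians lay between −0.15 (pair 2) and 0.24 (pair 1) on the log2 scale. The 2 grids of an array correlated over genes with r between 0.58 and 0.80 in pairs 1 to 4 and with r = 0.27 in pair 5, while the median gap between grids was largest in pair 3 (0.51, against 0.43 in pair 5, on the log2 scale). The deposited files used here hold no spot intensities, so that dim and bright genes could not be told apart, the heart label could not be checked by levels of marker genes, and precision is limited by how many arrays there are.

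Of 218 genes tested, 14 passed the threshold (adjusted p under 0.05), which is 6.42% of the genes. On the positive side were 9 of them (4.13%): Nppa, Angpt1, Sp1, Slc38a2, Ankrd1, Timp2, Slc38a4, Slc6a6 and Prkg1. On the negative side were 5 (2.29%): Acta1, Mt1, Slc38a3, Nqo1 and Odc1. Natriuretic peptide and skeletal actin stood far from the others, with 10.3-fold and 4.58-fold differences, while the other 12 differed by 1.42-fold to 1.95-fold. Before adjustment, 41 genes (18.8%) had a p under 0.05, 31 of them on the positive side. With each array centred on its median, 46 genes had such a p, 25 of them on the positive side. The median mean over genes was then −0.018, against 0.048 without centring, so that the share of genes on either side depends on this step. A sign shared by all 5 pairs was seen in 19 genes on the positive side (8.72%) and 10 on the negative side (4.59%). The errors and p-values come from limma, which moderates the spread of each gene over the 5 pairs of separate mice towards that of all genes. The prior carried 11.2 degrees of freedom, against 3 from the 5 pairs of a gene. The printed errors are thus not the spread of 1 gene alone, and for a gene of large spread, such as Nppa, they are smaller. Only Nppa and Acta1 kept a call whichever single pair was left out: 5, 2, 8 and 2 genes passed without pair 1, 2, 3 or 4, and 26 passed without pair 5. Without pair 5 limma assigned all genes 1 common variance, and with the prior of the fit on 5 pairs 18 genes passed. No called mean moved by over 1.5 times when 1 pair was left out, and 92 of the 118 other means of named or listed genes did, for 62 of them with the extremes without pairs 2 and 4. These counts do not compare the stability of called and other genes. A called mean is large against its error by choice, and a mean near 0 changes by a large factor after a small shift.

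**Figure D1:**
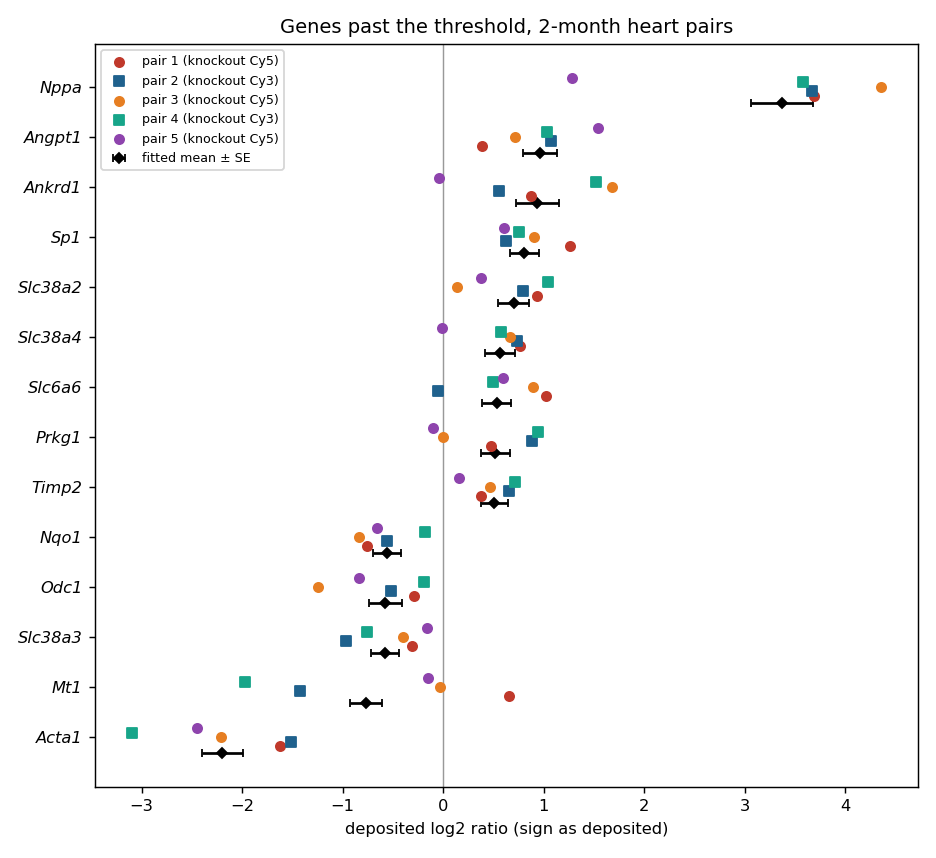
Log2 ratio as deposited (x axis) of the 14 genes past the threshold (rows) in each of the 5 pairs of 2-month hearts. Points are single pairs, marked by the dye of the knockout heart, and the bars are the fitted mean and its standard error. Nppa and Acta1 lie beyond 1 on the log2 scale in all 5 pairs, and for Nppa pair 5 lies at 1.28, apart from the other 4.

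Among the genes of cardiac hypertrophy and the fetal programme, 3 of the 4 measured genes passed (6.42% of all genes did), Nppa and Ankrd1 on the positive and Acta1 on the negative side. The median of the list was 0.62 on the log2 scale, against 0.048 over all 218 genes. The promoters of the 3 called genes are shown here as the 250 bases before the annotated start in RefSeq (build GRCm38.p6), because natriuretic peptide and skeletal actin carried the differences of largest size and lay on opposite sides. Capitals mark matches to motifs searched on both strands: TATAAA, the CArG box bound by serum response factor, CATTCC (the M-CAT motif bound by TEAD factors) and TGATAA, to which GATA factors bind.
Nppa, chr4:148000472-148000721, plus strand: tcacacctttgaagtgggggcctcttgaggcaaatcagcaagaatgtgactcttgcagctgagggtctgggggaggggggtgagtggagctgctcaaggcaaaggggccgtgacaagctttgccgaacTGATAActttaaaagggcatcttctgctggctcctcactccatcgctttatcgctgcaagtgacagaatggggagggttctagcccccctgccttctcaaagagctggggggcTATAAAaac
Acta1, chr8:123894776-123895025, minus strand: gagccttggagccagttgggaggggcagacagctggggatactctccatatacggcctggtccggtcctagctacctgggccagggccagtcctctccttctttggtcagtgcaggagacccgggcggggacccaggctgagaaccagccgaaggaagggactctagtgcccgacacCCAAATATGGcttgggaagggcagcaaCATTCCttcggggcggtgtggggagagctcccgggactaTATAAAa
Ankrd1, chr19:36119845-36120094, minus strand: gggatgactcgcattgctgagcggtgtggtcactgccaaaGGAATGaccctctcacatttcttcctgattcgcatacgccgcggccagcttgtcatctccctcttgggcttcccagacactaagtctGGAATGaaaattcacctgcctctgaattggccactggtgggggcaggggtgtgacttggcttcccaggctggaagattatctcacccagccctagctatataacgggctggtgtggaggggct
No motif match overlapped another. TATAAA was found in Nppa, 9 to 4 bases before the start, and in Acta1, 7 to 2 bases before it, and 12.4% of 32851 RefSeq promoter windows of that length hold it. TGATAA was found in Nppa, 122 to 117 bases before the start (7.94% of windows). The CArG box was found in Acta1, 73 to 64 bases before the start, and reads as a match on both strands (1.47% of windows). CATTCC was found in Acta1, 46 to 41 bases before the start, and on the other strand of Ankrd1 at 210 to 205 and at 123 to 118 bases, where it is printed as its reverse complement (12.6% of windows). These matches are a description of letters in the window, and no binding was measured.

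Nppa (Entrez Gene 230899) encodes atrial natriuretic peptide, the hormone that atrial muscle secretes and that stressed ventricles also make. Its log2 ratios were 3.69, 3.67, 4.35, 3.58 and 1.28 in pairs 1 to 5. Pairs 1 to 4 lay close together and pair 5 lay well below them, still on the positive side. The mean was 3.37 ± 0.31 (moderated SE, n = 5), a 10.3-fold difference (adjusted p = 3.5e-06, limma with Benjamini-Hochberg adjustment), and 3.82 without pair 5. All 10 grid columns of the 5 arrays were positive, between 1.17 and 4.67. The pairs with the knockout heart in Cy5 averaged 3.11 and those with it in Cy3 3.62. With robust empirical Bayes moderation, which gives a gene of large spread a larger error, the mean was the same and the adjusted p was 0.053. Nppa was also the only marker of atrial cardiomyocytes on the array. In bulk tissue a different share of atrial cells and a different RNA level per cell cannot be told apart, and the part of atrial tissue in this difference was not tested. Of the 4 measured markers of ventricular cardiomyocytes none passed: Ryr2 was at 0.26, Myh6 at 0.14, Pln at −0.11 and Mb at −0.22, with a median of 0.015.

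Acta1 (Entrez Gene 11459) encodes the skeletal alpha-actin that the heart shares with skeletal muscle. Its log2 ratios were −1.62, −1.51, −2.21, −3.09 and −2.44 in pairs 1 to 5. All pairs lay on the negative side, with pair 4 farthest from 0 and pairs 1 and 2 nearest. The mean was −2.20 ± 0.20 (moderated SE, n = 5), a 4.58-fold difference (adjusted p = 3.5e-06). Its pairs in both dye orientations overlapped, with a mean of −2.09 for the knockout in Cy5 and −2.30 for it in Cy3. It was the only measured marker of skeletal muscle.

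Ankrd1 (Entrez Gene 107765) encodes a stress-responsive protein of the sarcomere and nucleus. It was measured at 0.87, 0.55, 1.67, 1.52 and −0.041 in pairs 1 to 5, so that pairs 3 and 4 were high and pair 5 showed no difference. Its 2 spotted features had similar means of 0.95 and 0.92 but differed within pairs. They were at 1.30 and 0.44 in pair 1 and at 1.29 and 2.06 in pair 3. The mean was 0.94 ± 0.22, a 1.91-fold difference (adjusted p = 0.020). The call was lost without pair 1 (0.93, adjusted p = 0.18), without pair 2 (1.18, adjusted p = 0.062) and without pair 4 (0.70, adjusted p = 0.35). Myh7, the slow myosin heavy chain, did not pass, with 0.29, 0.29, 0.12, 0.68 and −0.088 in pairs 1 to 5 and a mean of 0.30 ± 0.14 (adjusted p = 0.28). The adult myosin gene Myh6, its neighbour on chromosome 14, lay at 0.14 ± 0.15 (adjusted p = 0.60).

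Taurine transport and synthesis had 4 measured genes, of which 1 passed (6.42% of all genes did), Slc6a6, the gene targeted in these mice. Slc6a6 (Entrez Gene 21366) was at 1.03, −0.048, 0.90, 0.50 and 0.59 in pairs 1 to 5. Pair 2 averaged near 0, with its grids at −0.30 and 0.20, and pairs 1 and 3 were highest. The mean was 0.53 ± 0.15, a 1.45-fold difference (adjusted p = 0.045), and it ran from 0.39 without pair 4 to 0.67 without pair 2, with the call lost without any of pairs 1 to 4 (adjusted p 0.062 to 0.35). Both spotted features of the gene gave similar means of 0.56 and 0.50. The sources used here do not say where in the transcript the oligonucleotide lies, and this value checks neither the deletion nor the direction of the ratio. Csad, an enzyme of taurine synthesis from cysteine, was at 0.72, −0.19, 0.47, 0.71 and 0.052 and averaged 0.34 ± 0.17 (adjusted p = 0.28), from 0.11 without pair 4 to 0.56 without pair 2. Baat, which joins bile acids to taurine or glycine in liver, averaged 0.14, and the betaine and GABA transporter gene Slc6a12 −0.16, and neither passed.

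The system A and system N amino acid transporters held 3 further called genes. Slc38a2, Slc38a4 and Slc38a1 carry small neutral amino acids such as alanine and glutamine into cells with sodium, and Slc38a2 is a known osmotic stress gene. Slc38a2 (Entrez Gene 67760) was at 0.94, 0.80, 0.14, 1.04 and 0.38 in pairs 1 to 5, positive in all pairs and lowest in pair 3. Its mean was 0.70 ± 0.15, a 1.63-fold difference (adjusted p = 0.015), with the call lost without pair 1, 2 or 4 (adjusted p = 0.12, 0.065 and 0.18). Slc38a4 (Entrez Gene 69354) was at 0.77, 0.73, 0.66, 0.58 and −0.0096. Pairs 1 to 4 lay close together and pair 5 averaged near 0, with its grids at 0.25 and −0.27. The mean of Slc38a4 was 0.56 ± 0.15, a 1.48-fold difference (adjusted p = 0.045), and its call was lost without any of pairs 1 to 4 (adjusted p 0.094 to 0.25).

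Slc38a3 (Entrez Gene 76257), the system N glutamine and histidine transporter, was on the other side, at −0.31, −0.97, −0.40, −0.76 and −0.16. All pairs were negative, and the pairs with the knockout heart in Cy3 lay farthest from 0. Its mean was −0.58 ± 0.14, a 1.49-fold difference (adjusted p = 0.022), with the call lost without any of pairs 1 to 4 (adjusted p 0.071 to 0.12). Slc38a1 did not pass and averaged −0.027 ± 0.16. Slc38a1, Slc38a2 and Slc38a4 lie side by side in this order on chromosome 15 in RefSeq, with no other coding gene between them. Of these neighbours Slc38a2 and Slc38a4 passed. In all, 4 of the 7 amino acid transporters measured passed, 3 positive and 1 negative (6.42% of all genes passed, 4.13% positive and 2.29% negative), and the median of the list was 0.00039. The glutamate transporter gene Slc1a3 was at 0.40, −0.73, 0.63, −0.24 and 0.44 and averaged near 0.

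The list of organic osmolytes and osmotic stress shares Slc38a1 to Slc38a4 and Slc6a12 with the transporters above. Its 2 further members did not pass: the myo-inositol transporter gene Slc5a3 averaged −0.16 ± 0.15 and the sodium, potassium and chloride cotransporter gene Slc12a2 −0.15 ± 0.13. Slc5a3 was far apart between pairs, at −0.78 and −0.69 in pairs 3 and 5 against 0.037 to 0.16 in the others.

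No aquaporin passed among the 8 measured (3 at an unadjusted p under 0.05, against 18.8% of all genes). Aqp9, a channel for water and glycerol, was at −0.78, −0.47, −1.10, 0.14 and −0.40 in pairs 1 to 5, negative in all pairs but pair 4. Its mean was −0.46 ± 0.16 (adjusted p = 0.11), and it passed when each array was centred on its median (−0.53, adjusted p = 0.038). The 2 spotted features of Aqp9, tested singly, had unlike means of −0.73 (adjusted p = 0.037) and −0.20 (adjusted p = 0.61). Aqp5 averaged 0.52 ± 0.18 (adjusted p = 0.11), but its values of −0.80, 0.91, −0.53, 2.27 and −0.30 split by dye orientation, and the mean moved from 0.18 without pair 4 to 0.86 without pair 2. The main heart aquaporin gene Aqp1 lay at −0.052, and Aqp2, Aqp3, Aqp4, Aqp7 and Aqp8 between −0.13 and 0.33.

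All 7 measured genes of the extracellular matrix averaged on the positive side, against 56.4% of all genes, and 1 of them, Timp2, passed (6.42% of all genes did). The median of the list was 0.47 on the log2 scale against 0.048 over all genes. At an unadjusted p under 0.05 were 5 of the 7, against 18.8% of all genes. The list median by pair was 0.85, 0.041, 0.75, 0.72 and 0.022. Pairs 1, 3 and 4 were high, and pairs 2 and 5 were near 0. Timp2 (Entrez Gene 21858), an inhibitor of matrix metalloproteinases, was at 0.38, 0.65, 0.46, 0.72 and 0.16, positive in every pair. In pair 5 the grids lay on opposite sides of 0 for Timp2, at −0.51 and 0.83. Its mean was 0.51 ± 0.14, a 1.42-fold difference (adjusted p = 0.045), and the call was lost without any of pairs 1 to 4 (adjusted p 0.11 to 0.19).

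The fibrillar collagen gene Col3a1 was at 1.58, 0.019, 1.09, 0.84 and 0.022 in pairs 1 to 5, with a mean of 0.66 ± 0.20 that did not pass (adjusted p = 0.078). Fibronectin, Fn1, was at 0.72, 0.041, 0.75, 1.46 and −0.13, with a mean of 0.60 ± 0.20 (adjusted p = 0.11). The genes of both chains of type I collagen had the same high pairs: Col1a2 was at 0.85, −0.10, 0.84, 0.75 and 0.16 and Col1a1 at 0.98, −0.45, 1.26, 0.47 and 0.42. Their means were 0.47 ± 0.17 (adjusted p = 0.12) and 0.45 ± 0.17 (adjusted p = 0.15). For each of these 4 genes pairs 1, 3 and 4 lay above pairs 2 and 5, and pair 2 lay near or below 0. For the type I collagen genes the height of pair 4 rested on 1 of 2 spotted features. In that pair the features were at 1.04 and −0.10 for Col1a1 and at 1.49 and 0.021 for Col1a2. Without pair 4 the means of Fn1, Col1a1 and Col1a2 were 0.25, 0.22 and 0.26. Without pair 5 and with the prior of the fit on 5 pairs, Col3a1 (0.88, adjusted p = 0.0094) and Fn1 (0.74, adjusted p = 0.040) passed beside Timp2. The other inhibitor genes, Timp1 (0.25 ± 0.20) and Timp3 (0.092 ± 0.14), did not pass. All 5 measured markers of fibroblasts, which are Col1a1, Col1a2, Col3a1, Fn1 and Timp1, are in this list too, so that a different share of fibroblasts and a different RNA level per cell cannot be told apart. Read as Cy5 to Cy3, 4 of the 7 matrix genes lay on the positive side.

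**Figure D2:**
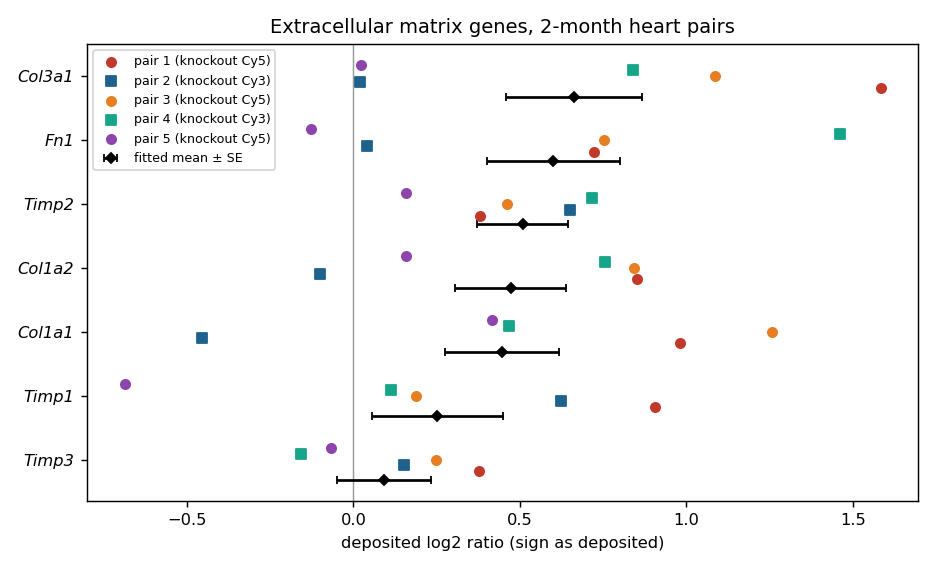
Log2 ratio as deposited (x axis) of the 7 measured extracellular matrix genes (rows) in each of the 5 pairs of 2-month hearts. Points are single pairs, circles with the knockout heart in Cy5 and squares with it in Cy3, and black bars are the fitted mean and its standard error. The list medians are 0.85, 0.75 and 0.72 in pairs 1, 3 and 4 and 0.041 and 0.022 in pairs 2 and 5.

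Natriuretic peptides and nitric oxide both act through cyclic GMP, and 1 of the 8 measured genes of that pathway passed (6.42% of all genes did). Prkg1 (Entrez Gene 19091), the cyclic GMP-dependent protein kinase, was at 0.48, 0.88, −0.0029, 0.94 and −0.10 in pairs 1 to 5. Pairs 2 and 4, with the knockout heart in Cy3, were high, and pairs 3 and 5 averaged near 0. In pair 3 the grids disagreed, at 0.62 and −0.62. The mean of Prkg1 was 0.52 ± 0.14, a 1.43-fold difference (adjusted p = 0.045), with the call lost without any of pairs 1 to 4 (adjusted p 0.072 to 0.25).

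The receptor that natriuretic peptides bind, Npr1, was at 0.62, −0.21, 0.49, 0.68 and 0.67, positive in all pairs but pair 2. Its mean of 0.41 ± 0.15 did not pass (adjusted p = 0.14), and it was 0.19 without pair 4 and 0.64 without pair 2. The genes of both subunits of soluble guanylate cyclase, the nitric oxide receptor, lie side by side on chromosome 3: Gucy1a1 was at 0.55, 0.019, 0.48, 0.90 and 0.30 with a mean of 0.45 ± 0.16 (adjusted p = 0.11), and Gucy1b1 averaged 0.26 ± 0.15 (adjusted p = 0.35). Without pair 4 these means were 0.23 and 0.096, and without pair 2 they were 0.67 and 0.42. The nitric oxide synthase genes Nos1, Nos2 and Nos3 averaged 0.17, −0.10 and 0.021, and none of them passed. In all, 6 of the 8 genes lay on the positive side, as did 56.4% of all genes, with a median of 0.21 against 0.048 over all genes.

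Angpt1 (Entrez Gene 11600), a ligand of the endothelial receptor Tie2, had the third smallest p. It was at 0.39, 1.07, 0.71, 1.03 and 1.54 in pairs 1 to 5, positive in every pair, in all 10 grid columns, and highest in pair 5. The mean was 0.97 ± 0.17, a 1.95-fold difference (adjusted p = 0.0036), and the call was lost without pair 2 (0.96, adjusted p = 0.062) and without pair 4 (0.98, adjusted p = 0.10). Its receptor gene Tek averaged 0.27 ± 0.15 and Tie1 0.16 ± 0.14, and the antagonist gene Angpt2 0.16 ± 0.14, and none of these passed. The vascular growth factor genes Vegfa, Vegfb and Vegfc averaged −0.024, −0.036 and 0.14, and their receptor genes Kdr and Flt1 −0.16 and −0.065. Of the 11 growth factor, insulin and receptor genes measured, 1 passed (6.42% of all genes did). On the positive side lay 5 of them (56.4% of all genes did), with a median of −0.024. The 7 measured endothelial markers (Tek, Cdh5, Pecam1, Tie1, Kdr, Flt1 and Nos3) had a median of 0.022, from −0.21 for Cdh5 to 0.27 for Tek, and none passed.

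Sp1 (Entrez Gene 20683), a transcription factor that binds GC-rich promoters, was at 1.27, 0.62, 0.91, 0.75 and 0.61 in pairs 1 to 5, positive in every pair. Its mean was 0.81 ± 0.15, a 1.75-fold difference (adjusted p = 0.0039), and the call was lost without pair 2 (0.84, adjusted p = 0.056) and without pair 4 (0.77, adjusted p = 0.10). The grids differed, with a mean of 1.13 in the first and 0.48 in the second, and the call was also lost on grid 2 alone (adjusted p = 0.43) and with all grids fitted and the array as a random block (adjusted p = 0.066). Hif1a, the oxygen-regulated factor, averaged 0.35 ± 0.15 and was positive in all pairs, and Creb1 averaged 0.18 ± 0.14, and neither passed.

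Of 11 genes of oxidative stress and glutathione, 2 passed, both on the negative side, where 2.29% of all genes passed. Nqo1 (Entrez Gene 18104), a quinone reductase and a classic target of the factor Nrf2, was at −0.76, −0.56, −0.84, −0.18 and −0.66 in pairs 1 to 5. All pairs were negative and pair 4 lay nearest to 0. The mean was −0.56 ± 0.14, a 1.48-fold difference (adjusted p = 0.028), and it moved to −0.47 without pair 2 and −0.66 without pair 4, with the call lost without any of pairs 1 to 4 (adjusted p 0.072 to 0.14).

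Mt1 (Entrez Gene 17748), the metal-binding metallothionein 1, was at 0.65, −1.42, −0.033, −1.97 and −0.15. Pairs 2 and 4, with the knockout heart in Cy3, were strongly negative, and those with it in Cy5 lay between −0.15 and 0.65. Its mean of −0.77 ± 0.16 passed (1.70-fold, adjusted p = 0.012), and so did its dye coefficient of 1.85 ± 0.32 (adjusted p = 0.0032). Mt1 was the only gene past the threshold for both. The call of its mean was lost without pair 2 (−0.91, adjusted p = 0.056) and without pair 4 (−0.63, adjusted p = 0.18). The heme oxygenase gene Hmox1, another Nrf2 target, averaged −0.049, with values of 0.51, −0.67, 0.53, −0.74 and 0.78 that also split by dye. The superoxide dismutase genes Sod1, Sod2 and Sod3 averaged 0.010, −0.13 and 0.27, catalase (Cat) 0.16 and glutathione reductase (Gsr) −0.038, and none passed. Ncf1, a subunit of the phagocyte oxidase and the only measured marker of macrophages and monocytes, was positive in all pairs and averaged 0.30 ± 0.13 (adjusted p = 0.25).

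Odc1 (Entrez Gene 18263), ornithine decarboxylase, the rate-limiting enzyme of polyamine synthesis, was at −0.29, −0.52, −1.25, −0.19 and −0.84 in pairs 1 to 5. All pairs were negative, pair 3 most so. The mean was −0.57 ± 0.16, a 1.49-fold difference (adjusted p = 0.045), with the call lost without any of pairs 1 to 4 (adjusted p 0.064 to 0.21) and also without pair 5 with the prior of the fit on 5 pairs (adjusted p = 0.079). The other 4 measured genes of polyamine and methionine metabolism, Ahcy, Bhmt, Glul and Cbs, averaged 0.042 to 0.10 and did not pass. Odc1 is also in the list of reference genes, where Actb (0.33 ± 0.20), Ppia (0.29 ± 0.15) and Gapdh (−0.13 ± 0.14) did not pass. Without pair 4 Actb was at 0.041 and Ppia at 0.14, and without pair 2 at 0.62 and 0.44.

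Genes of energy metabolism held no call in the lists of fatty acids (2 of 5 at an unadjusted p under 0.05) and glucose (0 of 4). Over all genes, 18.8% were at such a p. Etfdh, which passes electrons from fatty acid oxidation to the respiratory chain, was at −0.29, −0.63, −0.76, −0.0096 and −0.50, with a mean of −0.42 ± 0.15 (adjusted p = 0.12). It moved from −0.26 without pair 2 to −0.57 without pair 4. The genes of both subunits of the mitochondrial trifunctional protein, Hadha and Hadhb, averaged −0.23 and −0.092. Among 5 genes of fatty acid oxidation and transport 4 lay on the negative side, and Fabp5 alone on the positive side at 0.32 ± 0.14. Slc2a4, the insulin-regulated glucose transporter GLUT4, averaged −0.17 and the lactate dehydrogenase gene Ldha −0.0019. Dbi, an acyl-CoA binding protein, was at 1.20, −0.082, 0.99, 0.42 and 0.45 and just missed the threshold with a mean of 0.52 ± 0.16 (adjusted p = 0.066).

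Of all genes, 6.42% passed and 18.8% were at an unadjusted p under 0.05, beside which the counts of the following lists stand. In the calcium handling list Ryr2 (0.26), Pln (−0.11) and Calr (−0.20) did not pass (0 at an unadjusted p under 0.05), and in the contractile list Acta1 was the only call of 4. The 3 cathepsin genes lay on the positive side without passing (2 at an unadjusted p under 0.05), with Ctsh at 0.78, 0.037, 0.78, 0.79 and 0.052 and a mean of 0.47 ± 0.16 (adjusted p = 0.11), Ctsb at 0.38 ± 0.16 and Ctsl at 0.078 ± 0.17. The mean of Ctsh was 0.29 without pair 4 and 0.66 without pair 2. No gene passed among 11 of inflammation (2 at an unadjusted p under 0.05), where Vcam1 was positive in all pairs with a mean of 0.39 ± 0.14 (adjusted p = 0.13), or among 7 of apoptosis (1 at an unadjusted p under 0.05), where Diablo averaged −0.34 ± 0.15 (adjusted p = 0.24). The only measured lymphocyte marker, Il2, averaged 0.11. None passed among 5 heat shock genes (0 at an unadjusted p under 0.05), where the mitochondrial chaperone genes Hspd1 and Hspe1, adjacent on chromosome 1, averaged −0.23 and −0.22. None passed among 3 genes of the unfolded protein response (1 at an unadjusted p under 0.05) or 5 immediate early and MAP kinase genes (0 at an unadjusted p under 0.05), either. Xbp1 was positive in all pairs and lowest in pair 3, at 0.40, 0.36, 0.13, 0.42 and 0.38, with a mean of 0.34 ± 0.14 (adjusted p = 0.16). Its value in pair 5 is the average of 2 spotted features that lay apart, at 0.98 and −0.22.

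Of the 7 ABC transporters and bile acid uptake genes, 6 lay on the negative side, against 43.6% of all genes. None passed (1 at an unadjusted p under 0.05, against 18.8% of all genes). The bile salt export pump gene Abcb11 was negative in all 5 pairs, with −0.43, −0.12, −0.79, −0.34 and −0.39 and a mean of −0.38 ± 0.14 (adjusted p = 0.13). Within pairs its readings were less even. The 2 spotted features lay at −1.73 and 0.16 in pair 3, and the grids at −0.55 and 0.32 in pair 2. Abcc3 and Abcc2 averaged −0.31 ± 0.15 and −0.28 ± 0.15, but Abcc3 ran from −0.51 without pair 4 to −0.10 without pair 2, and Abcc2 from −0.40 without pair 5 to −0.18 without pair 3. Angiotensinogen, Agt, was also negative in all pairs, at −0.17, −0.49, −0.17, −0.22 and −0.51, with a mean of −0.32 ± 0.14 (adjusted p = 0.23).

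**Figure D3:**
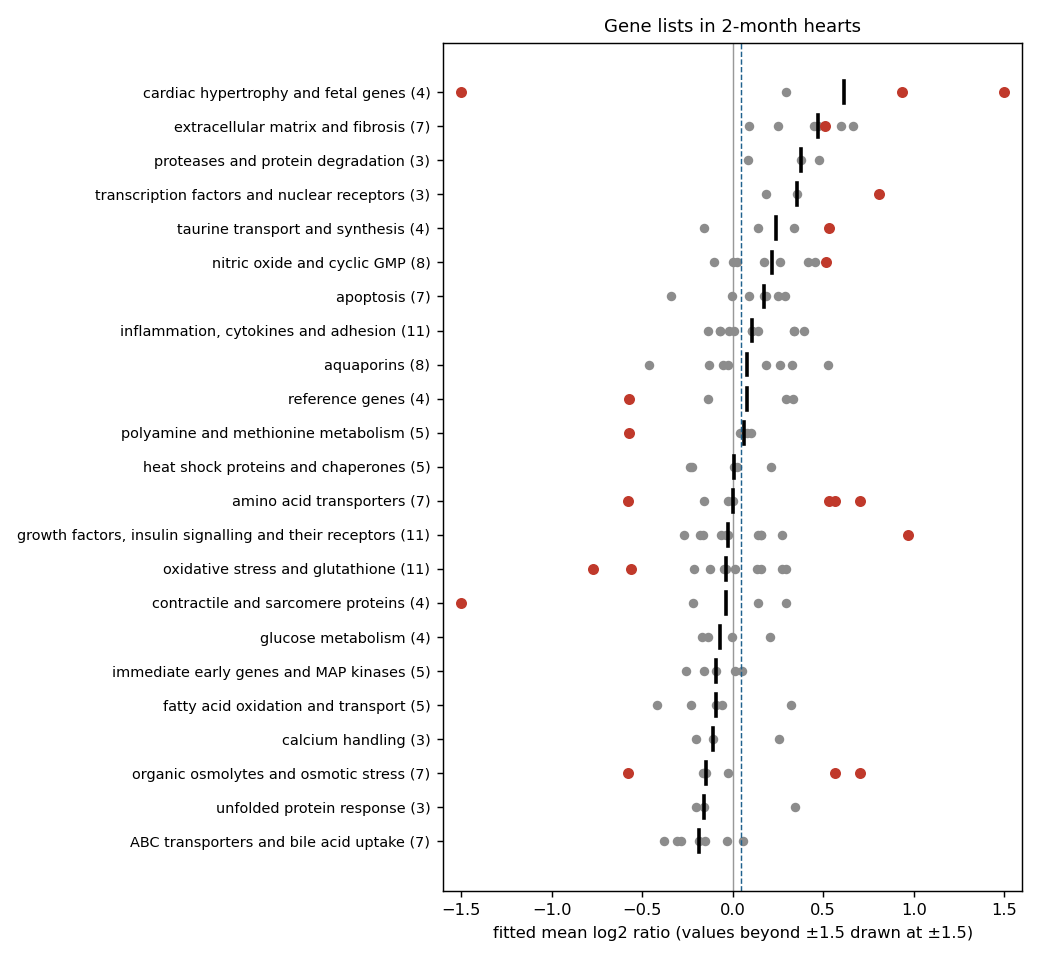
Fitted mean log2 ratio as deposited (x axis) of each measured gene by list (rows, number of genes in brackets) in 2-month hearts. Red points passed the threshold, grey points did not, black bars are list medians and the dashed line is the median over all 218 genes (0.048). The hypertrophy list (0.62) and the matrix list (0.47) have the highest medians, and Nppa and Acta1 are drawn at the limits of 1.5 on either side.

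The part of the ratios that followed the dye passed in nearly as many genes as the mean. The dye coefficient, the ratio with the knockout heart in Cy5 minus that with it in Cy3, passed the threshold in 13 genes (5.96%), 8 positive (3.67%) and 5 negative (2.29%), and 48 genes (22.0%) were at an unadjusted p under 0.05. In 95 genes (43.6%) the 3 pairs of 1 orientation did not overlap with the 2 of the other. With so few pairs some splits of this kind arise by chance, so that not all of them need follow the dye. Gapdh, a glycolytic enzyme often used as a reference gene, was at 0.58, −1.04, 0.72, −0.87 and 0.76. Pairs 1, 3 and 5 were positive and pairs 2 and 4 negative, and the coefficient was 1.65 ± 0.27 (adjusted p = 0.0032). Hmox1 (1.32 ± 0.27, adjusted p = 0.014) ran the same way.

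The opposite split was seen for the water channel Aqp5 (−2.13 ± 0.36, adjusted p = 0.0032), the sodium-proton exchanger Slc9a4 (−1.23 ± 0.28, adjusted p = 0.021), the cytokine Il10 (−1.53 ± 0.35, adjusted p = 0.021) and the connexin Gjb2 (−1.46 ± 0.35, adjusted p = 0.022). Slc9a4 was at −0.14, 1.19, −0.36, 0.93 and −0.025 in pairs 1 to 5, so that the pairs with the knockout heart in Cy3 were far on the positive side and the others below 0. Gjb2 was at −0.59, 0.67, −1.69, 0.38 and −0.51. The genes that varied most between pairs were Aqp5 (SD 1.27), Nppa (1.18), Mt1 (1.08), Il10 (0.97) and Gjb2 (0.93). Without pair 1, 2, 3 or 4 the dye coefficient passed in 0, 1, 6 and 4 genes, and without pair 5 in 33. Read as Cy5 to Cy3, the genotype difference is formed from the dye coefficient, and these 13 genes in place of the 14 would pass, with Mt1 in both.

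**Figure D4:**
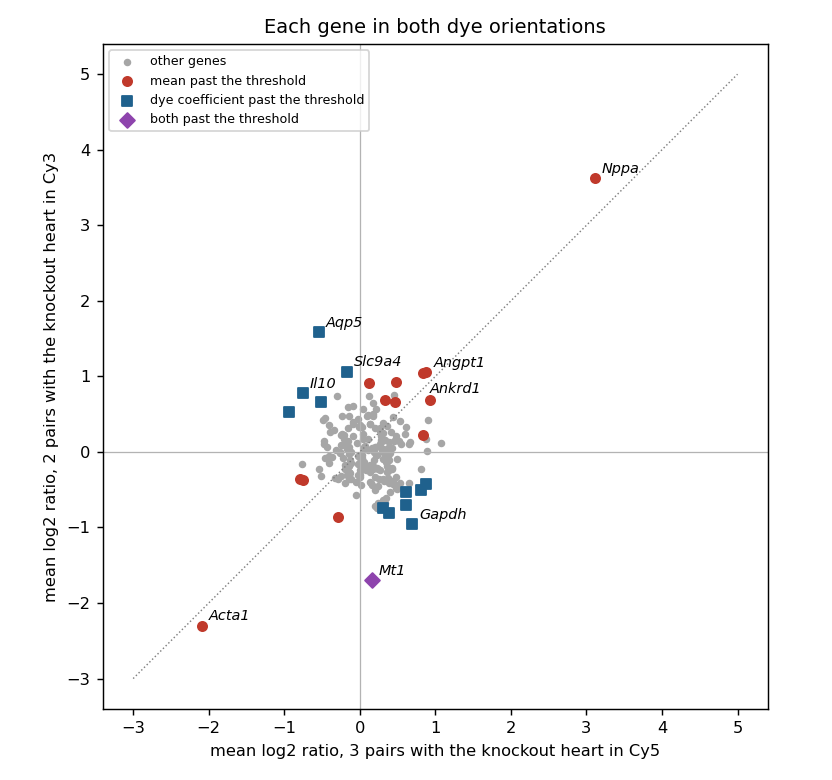
Mean log2 ratio as deposited of each of 218 genes in the 3 pairs with the knockout heart in Cy5 (x axis) and in the 2 pairs with it in Cy3 (y axis). On the dotted line both orientations are equal: Nppa and Acta1 lie near it, while Gapdh (0.69 and −0.96) and Aqp5 (−0.54 and 1.59) lie on opposite sides of 0.

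Set beside the pairs of 15 to 16 months in a fit of all 9 pairs, no gene passed for the difference between ages by limma (0 of 218 at the threshold, 0%, and 2 at an unadjusted p under 0.05, 0.917%), and the smallest adjusted p was 0.97. The old pairs gave 2.44 for Nppa and −2.35 for Acta1, against 3.40 and −2.05 in the young pairs of that fit. The genes with the smallest p for old minus young were Il10 (−1.49 ± 0.51), Abcc2 (0.72 ± 0.28), Nme1 (0.61 ± 0.29), Aqp9 (1.14 ± 0.54) and Slc10a1 (−0.71 ± 0.34), none of which passed. Nme1 is a nucleoside diphosphate kinase and Slc10a1 a bile acid uptake transporter. Without old pair 3, Abcb11 (1.52, adjusted p = 0.030) and Il10 (−2.15, adjusted p = 0.023) passed. A difference that misses the threshold with 5 and 4 pairs does not show that the ages were alike.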

How the data were processed

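The deposited values are log2 ratios: taken out of the log, 99.9% of them are whole hundredths (tolerance 0.02 hundredths). The authors scaled both channels separately by a global method that left out the top and bottom 20% of signals, per the labels. Such a step sets the level of an array, and the values were used without another centring. RNA came from Trizol and a silica column and was copied from oligo(dT) primers, so 3' ends are favoured. The sources used here name no scanner, background correction or spot filter. Of 768 features 582 had values in the young pairs. Of 219 named genes, all matched by Entrez identifier to a RefSeq table with 0 symbols changed, 218 could be tested, and A1bg had no value in young pairs. Among 5820 young values 74 were exactly 0 (1.27%).

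Spots were averaged per gene within a grid (2 spots for each oligonucleotide and grid), then over the 2 grids, so that each pair counted once. The 5 young pairs were fitted with limma 3.58.1 in R 4.3.3, as a mean and a dye coefficient (knockout heart in Cy5 or Cy3; 3 residual degrees of freedom, and 14.2 after moderation). Genes with values in at least 3 pairs were kept. Tests were two-sided and adjusted by Benjamini-Hochberg over 218 genes, with a threshold of 0.05. Old and young pairs were compared in 1 fit of all 9 pairs with 1 dye term. The procedure was tested on simulated data. Promoter sequences came from a RefSeq table (GRCm38.p6), and figures were drawn with Python 3.11.15 and matplotlib 3.10.9.

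The comparison, gene lists and marker lists were chosen with earlier results of these data known. By rule the text names Slc6a6, up to 15 called genes on each side (filled to 10 by smallest p), measured members of the lists, and 5 genes each for dye (smallest p), spread between pairs (largest SD) and age (smallest p). No smooth muscle, erythroid or adipocyte marker is among the genes tested here, and lists are described by counts and medians only. Alternatives covered the dye term, both ages in 1 fit, centring, scaling, grids, filters, spot averaging, robust fits, weights, the reading as Cy5 to Cy3 and each pair left out. A fit with centring and no dye term, and a fit without pair 5 under the prior of 5 pairs, were added after the data were seen.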

Additional observations from a re-analysis of the deposited data

Results flagged for a closer look

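Among 132 genes named by the rule or held in a list, 10 had 1 of the 5 pairs far from the others (gap over range above Dixon's 95% critical value for 5 samples); chance flags about 1 in 20. Pair 5 stood apart for Nppa (1.28) and Slc38a4 (−0.0096), in both cases nearer to 0 than the others. Pair 2 stood below the others for Npr1 (−0.21), Fos (−1.37), Il2 (−0.43) and Tnf (−0.71), and above them for Ryr2 (0.54). Pair 3 stood below the others for Slc10a1 (−0.44) and Xbp1 (0.13), and pair 4 for Bcl2 (0.023). These are values averaged over spots, and for Xbp1 the 2 spotted features lay at 0.98 and −0.22 in pair 5.

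Of 56 features with values but no gene symbol, which took no part in the gene comparison, 2 passed when all 582 features were tested singly, and 7 were at an unadjusted p under 0.05, against 16 and 89 of all 582. The features that passed are feature 61, with a mean of 1.02 and pair values of 1.15, 0.40, 1.52, 1.48 and 0.65, and feature 62, with a mean of 0.93 and pair values of 1.12, 0.28, 0.71, 1.66 and 0.86. Both were positive in all 5 pairs. Features with consecutive numbers often carry 1 symbol (67 and 68 are both Nppa), and each oligonucleotide has 2 spots in a grid. Features 61 and 62 may therefore be spots of 1 oligonucleotide and are not 2 separate results. Which transcript they measure is not given in the sources used here.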

How the results depend on the processing

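Against 14 genes (9 positive, 5 negative), the count was 4 (3 and 1) without the dye term, 5 (3 and 2) with centring and no dye term, 1 (1 and 0) with all 9 pairs and 1 dye term, and 8 (4 and 4) with a dye coefficient for each age. It was 12 (9 and 3) on grid 1, 5 (3 and 2) on grid 2, where all genes shared 1 variance, 8 (4 and 4) over the 204 genes whose grids lay close, 9 (5 and 4) without values of 0, and 23 (15 and 8, 11 of them shared) with robust regression. Centring and scaling gave 8 positive and 7 negative calls, 53.3% positive against 64.3%. Leaving out each pair in turn gave 2 to 26 genes, 1 to 20 positive and 1 to 6 negative, and without pair 5 under the prior of 5 pairs 14 were positive and 4 negative. The dye coefficient, called in 13 genes, was called in 5 on grid 1, 27 with the array as a random block, 33 with robust regression, 24 single features and 0 to 33 genes without each pair.

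In up to 23 alternatives for each gene, other than the Cy5 to Cy3 reading, none of the 14 genes changed sign, and the other 12 lost their call in 3 (Angpt1) to 15 (Odc1) of them. Nppa lost its call under robust empirical Bayes only, and Acta1 only with all 9 pairs and 1 dye term (adjusted p = 0.058). Read as Cy5 to Cy3 with a dye term, the sign was reversed for Nppa (−0.26), Acta1 (0.11), Angpt1 (−0.087), Mt1 (0.93), Slc38a2 (−0.22), Ankrd1 (−0.10), Slc38a3 (0.29), Timp2 (−0.18), Slc38a4 (−0.092), Prkg1 (−0.39), Gapdh (0.83), Aqp5 (−1.07), Hmox1 (0.66), Slc9a4 (−0.62), Il10 (−0.77), Mb (0.53), Slc25a4 (0.60) and Bhmt (−0.59). In that reading without a dye term 1 gene passed, Gapdh (0.80; 1 positive and 0 negative), and Mt1 (0.77), Slc38a2 (−0.078), Slc38a3 (0.17), Timp2 (−0.074) and Prkg1 (−0.29) were reversed, which follows from turning the sign in pairs 2 and 4. The cause of the other changes was not tested.

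With the pair number as a replicate block, the difference between ages gave 0 genes, as without it (4 and 2 at an unadjusted p under 0.05). Over the 9 pairs left out in turn it gave 0 to 2 genes. The pair numbers carry no stated link between the ages. Signal over background is unknown, and 2 pairs carry the Cy3 orientation, so that leaving out 1 of them rests on the other.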

Other observations

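Further groups were put together after their values were seen, and no member of them passed the threshold. Of 10 genes of purine nucleotide and adenosine metabolism, 2 lay on the positive side (56.4% of all genes did), with a median of −0.13 against 0.048 over all genes, from −0.31 for the nucleoside diphosphate kinase gene Nme1 to 0.12 for the ecto-ATPase gene Entpd1. The 4 measured connexin genes averaged from −0.24 for Gjb1 to near 0 for Gja1 (−0.0070), the main ventricular connexin; 43.6% of all genes lay on the negative side. Of 10 apolipoprotein genes 6 lay on the positive side (median 0.11, highest Apoa4 at 0.28). The 7 ribosomal protein genes had a median mean of 0.043, and their dye coefficient was positive in 7 of 7 (median 0.45), against 136 of all 218 genes (median 0.17). Serpina3n, an acute phase serine protease inhibitor gene, was at 2.02, 0.17, 0.82, 0.073 and 0.37 in pairs 1 to 5, with a mean of 0.60 ± 0.20 (adjusted p = 0.11).

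Of genes that lie next to each other in RefSeq with no coding gene between them, Hspd1 and Hspe1 lay within 0.010 of each other on the log2 scale, while Slc9a4 (0.45) and Slc9a2 (−0.25) lay on opposite sides.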
